A study of Mus musculus with 18 samples.

Results

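Ribosome footprints of cortical neurons carrying the MTOR variant L2427P were compared with those of neurons carrying wild-type MTOR (WT). The comparison holds 6 of the 18 libraries of the series, 3 per genotype, chosen by their labels, and all 24035 named genes. Both groups were C57BL/6 mouse neurons electroporated in utero with an MTOR construct on embryonic day 14 and sorted by flow cytometry on embryonic day 18, per the labels' protocols. The L2427P group received the construct with the substitution and the WT group the construct without it, so the controls too carried electroporated MTOR. The promoter of the construct, the marker used for sorting and the number of animals per library are not stated in the labels, and the host's own Mtor gene was present in both groups. The labels do not say whether replicates came from separate litters or animals, so p-values measure only the spread between these libraries. A footprint is the stretch of mRNA that a ribosome shields from RNase I, and its count per gene follows both how much of an mRNA there is and how many ribosomes sit on it. In such bulk samples, fewer cells of a type and less RNA per cell cannot be told apart.

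MTOR is the kinase of mTOR complexes 1 and 2, which couple nutrients and growth factors to cell growth. Complex 1 phosphorylates the 4E-BPs and the S6 kinases, and through the 4E-BPs and LARP1 it controls the translation of mRNAs that begin with a terminal oligopyrimidine (TOP) tract, a run of C and T bases found on the mRNAs of ribosomal proteins and elongation factors. It also promotes lipid synthesis and restrains autophagy and the making of lysosomes. In the embryonic cortex the pathway bears on neuronal size, migration and axon growth. L2427P replaces a leucine of the kinase domain with a proline, and such MTOR variants occur in focal malformations of cortical development.

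The L2427P libraries held 13401951, 10545739 and 23858123 counts in replicates 1, 2 and 3, against 7695442, 12249792 and 34094913 in the WT libraries. Every count of WT replicate 3 is a multiple of 3, so its true depth may be lower. The L2427P libraries had counts for 6904, 10941 and 10874 genes, against 6112, 7260 and 8871 genes in WT. A gene was called abundant when its level, in CPM, counts scaled to a common total over the named genes, averaged at least 100 over the 6 libraries, which held for 2161 genes. The share of abundant genes below 1 CPM was 4.07%, 0% and 0.0463% in L2427P and 14.1%, 4.95% and 0.463% in WT, so both replicate 1 libraries lacked more of them than the other libraries of their group. Over the abundant genes, Spearman's rho was 0.528 to 0.797 between L2427P libraries, 0.237 to 0.528 between WT libraries and 0.243 to 0.805 between an L2427P and a WT library. The best matched pair of all was L2427P replicate 3 with WT replicate 3, so the libraries did not group by genotype.

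**Figure D1:**
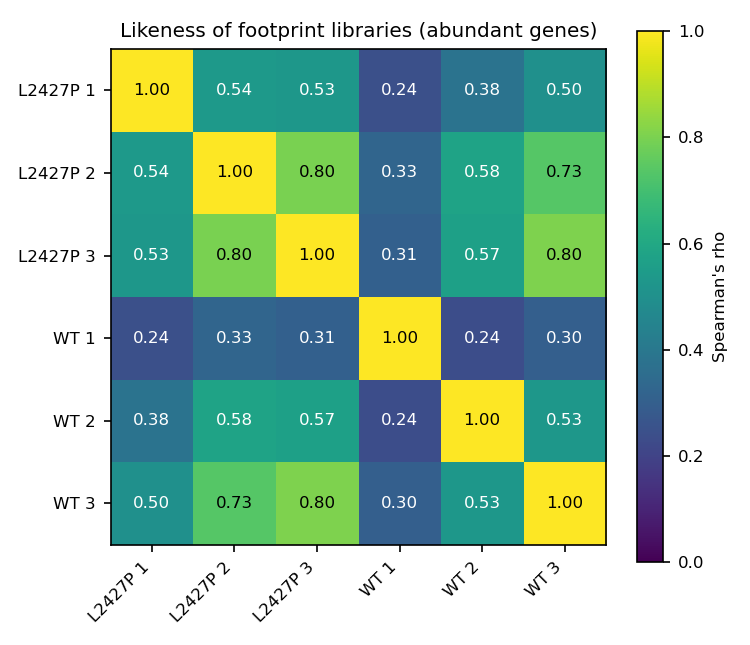
Each cell gives Spearman's rho between 2 footprint libraries over the 2161 abundant genes, with L2427P replicates 1 to 3 before WT replicates 1 to 3 on both axes. WT 1 is unlike every other library, at 0.237 to 0.328, while L2427P 2, L2427P 3 and WT 3 resemble each other.

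No gene passed the test between the 2 genotypes, and the spread between libraries was wide. Well-counted genes are the 2035 abundant genes with a count above 0 in all 6 libraries. Of these, 1525 (74.9%) had a fitted change of at most 1 on the log2 scale, and their median log2 fold change, L2427P over WT, was -0.16. Across the 10315 genes tested, 0 (0%) were called higher and 0 (0%) lower in L2427P at an adjusted p of 0.05 by edgeR's quasi-likelihood test with Benjamini-Hochberg adjustment. At an unadjusted p under 0.05, 339 genes (3.29%) were higher and 49 (0.475%) lower, 388 in all, while 5% of the genes tested would be 516. A whole group stood at 0 in 288 of the 388. DESeq2's Wald test called 279 genes higher and 19 lower at an adjusted p of 0.05, with a whole group at 0 in 146 of these 298, and 0 of the calls fell on a well-counted gene. DESeq2's size factors in place of TMM moved the median of the well-counted genes by -0.34, and edgeR then gave 343 genes higher and 110 lower at an unadjusted p under 0.05. The share of higher genes was then 75.7% in place of 87.4%, with nearly the same number higher and more lower.

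Among the well-counted genes the split depended on the scaling. With TMM, at an unadjusted p under 0.05, 8 (0.393%) were higher and 17 (0.835%) lower, 25 in all, while 5% of them would be 102. With size factors these counts were 0 higher and 56 lower. Without ties, a random order of the libraries would set the groups apart in 5% of genes in each direction. All 3 L2427P libraries lay above all 3 WT libraries for 100 well-counted genes (4.91%) and below them for 88 (4.32%). Over all genes tested these counts were 719 (6.97%) and 170 (1.65%). In most of the well-counted ones the gap was small, since the lowest library of the higher group exceeded the highest library of the lower group by over 1.2 times in 44 of the 100 and in 36 of the 88. The median standard error of a well-counted gene's log2 fold change was 1.26, and 1364 of the 2035 had one above 1. For these genes a change of 1 on the log2 scale was not detectable at this depth and spread.

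Mtor itself, the electroporated gene, had the smallest p of all genes tested with edgeR on 8 libraries, but not a small one in every setting. The locus lies on chromosome 4, 148448582 to 148557685 in the RefSeq annotation of GRCm38.p6, and reads from the construct may be counted there. Mtor footprints stood at 729.6, 2681 and 2359.8 CPM in the L2427P libraries, against 3593, 3020.5 and 4242 CPM in the WT libraries. The means were 1923 ± 1046 CPM in L2427P and 3618 ± 611 CPM in WT (SD, n = 3 each, a ratio of 0.532). Every L2427P library lay below every WT library, and L2427P replicate 1 stood far below the other 2. The log2 fold change was -1.04 (SE 0.24), with an adjusted p of 0.107 by edgeR's quasi-likelihood test, and an exact permutation test (two-sided) gave p = 0.1, the lowest value possible with 3 libraries a side. The value rested in part on L2427P replicate 1: without it the log2 fold change was -0.75 with an adjusted p of 0.56, and without both replicate 1 libraries it was -0.51 with an adjusted p of 0.795. Without WT replicate 2 it was -1.31 with an adjusted p of 0.0163, and without L2427P replicate 2 it was -1.39 with an adjusted p of 0.0379, which pass the threshold. Its unadjusted p was 0.0677 in a fit with replicate blocks, by DESeq2's Wald test it was 0.267, and with all 9 footprint libraries, where the SE was 1.64, it was 0.524 by edgeR. Adk, the adenosine kinase gene on chromosome 14, stood at 61.3, 67.9 and 77.0 CPM in the L2427P libraries, against 0, 20.1 and 8.36 CPM in the WT libraries, also without overlap (log2 fold change 2.85, SE 3.24, exact permutation p = 0.1, again the lowest possible). Unlike Mtor, its unadjusted p was 0.379 by edgeR's quasi-likelihood test. The mRNA log2 fold change of Adk was -0.24 (SE 3.85).

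Besides Mtor, 13 well-counted genes had groups that did not overlap together with an unadjusted p under 0.05, 6 higher (0.295% of the well-counted genes) and 7 lower in L2427P. With Mtor the lower ones were 8 (0.393%). Over all genes tested the same rule held for 144 higher (1.4%) and 9 lower genes (0.0873%). The values of the 13 genes chose them, so the values describe them and test nothing, and each adjusted p was 0.764 by edgeR's quasi-likelihood test. Of the 6 higher genes, the 5 described here act in lipid synthesis, endosomal sorting, the cytoskeleton and translation elongation. Fasn, the fatty acid synthase, stood at 2238, 2275 and 2168 CPM in the L2427P libraries, against 1197, 1429 and 1388 CPM in the WT libraries, with narrow groups on both sides (log2 fold change 0.62, SE 0.29, unadjusted p = 0.0304). Vps35, the cargo-binding subunit of the retromer that retrieves proteins from endosomes, stood at 806, 439 and 346 CPM in the L2427P libraries, against 27.7, 132 and 322 CPM in the WT libraries (log2 fold change 1.77, SE 0.76, unadjusted p = 0.0199).

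Myo18a, an unconventional myosin, stood at 634, 314 and 318 CPM in the L2427P libraries, against 47.7, 106 and 209 CPM in the WT libraries (log2 fold change 1.80, SE 0.86, unadjusted p = 0.0377). Stmn3, a stathmin that binds tubulin dimers and destabilizes microtubules, stood at 822, 375 and 203 CPM in the L2427P libraries, against 2.47, 94.2 and 159 CPM in the WT libraries (log2 fold change 2.52, SE 1.11, unadjusted p = 0.023). In Vps35, Myo18a and Stmn3 the highest library was L2427P replicate 1 and the lowest WT replicate 1, the libraries with the fewest genes counted in their groups. Eef1a2, the elongation factor 1 alpha isoform that replaces Eef1a1 in mature neurons and muscle, stood at 385, 203 and 95.8 CPM in the L2427P libraries, against 0.260, 14.9 and 0.0880 CPM in the WT libraries (log2 fold change 5.46, SE 2.68, unadjusted p = 0.0418). Its WT values in replicates 1 and 3 rest on at most 3 counts each, so its fold change is poorly fixed.

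Of the 7 lower genes, 4 were well above 0 in every library. Igfbpl1, of the insulin-like growth factor binding protein family, stood at 1554, 1321 and 1051 CPM in the L2427P libraries, against 2769, 1759.7 and 1644 CPM in the WT libraries (log2 fold change -0.82, SE 0.30, unadjusted p = 0.00646). Gpc2, the glypican cerebroglycan found on growing axons, stood at 544, 588 and 629 CPM in the L2427P libraries, against 1229, 1327 and 766 CPM in the WT libraries (log2 fold change -1.07, SE 0.49, unadjusted p = 0.0292). Scg3, the secretogranin that helps to form dense-core granules, stood at 200.2, 374 and 563 CPM in the L2427P libraries, against 774, 868 and 694 CPM in the WT libraries (log2 fold change -1.19, SE 0.57, unadjusted p = 0.0383). The L2427P libraries were tightly grouped for Gpc2, and those of Scg3 were spread more than the WT libraries. Celf2, an RNA-binding protein that regulates splicing, translation and mRNA stability, stood at 933, 1001 and 956 CPM in the L2427P libraries, against 2237, 1101 and 1322 CPM in the WT libraries (log2 fold change -0.88, SE 0.38, unadjusted p = 0.0205). Its L2427P libraries were nearly level, and its WT libraries ranged widely with replicate 1 highest.

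The other 3 lower genes were near 0 in L2427P replicate 1. Rps15, a protein of the small ribosomal subunit, stood at 1.04, 119 and 98.3 CPM in the L2427P libraries, against 501, 242 and 211 CPM in the WT libraries (log2 fold change -2.36, SE 1.17, unadjusted p = 0.0437). Emg1, a methyltransferase needed to make the small subunit, stood at 0.224, 19.5 and 84.9 CPM in the L2427P libraries, against 549, 226 and 140.1 CPM in the WT libraries (log2 fold change -3.43, SE 1.48, unadjusted p = 0.0207). Ctsf, the lysosomal protease cathepsin F, stood at 0.0746, 37.2 and 44.5 CPM in the L2427P libraries, against 757, 90.0 and 55.6 CPM in the WT libraries (log2 fold change -3.83, SE 1.76, unadjusted p = 0.0292). In the remaining L2427P libraries these genes were present, and for Ctsf replicate 3 of both groups differed little. Whether the loss of abundant genes from L2427P replicate 1 has a part in these values was not tested.

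Leaving out 1 library at a time moved the fold of 6 of the 12 genes described by over 1.5 times. No sign changed, which the choice of genes without overlap had all but fixed in advance. For Ctsf the log2 fold change ran from -4.56 to -1.55, nearest 0 without WT replicate 1, and without both replicate 1 libraries it was -0.85. For Emg1 it ran from -5.16, without L2427P replicate 3, to -2.53, without WT replicate 1. For Rps15 it ran from -2.96, without L2427P replicate 2, to -1.75, without WT replicate 1. Among the higher genes, Eef1a2 ran from 4.78, without L2427P replicate 1, to 10.08, without WT replicate 2, where its other WT libraries are close to 0. Vps35 ran from 1.23 without WT replicate 1 to 2.57 without WT replicate 3, and Stmn3 from 1.79 without L2427P replicate 1 to 3.2 without WT replicate 3. Fasn, Myo18a, Igfbpl1, Gpc2, Scg3 and Celf2 moved by less in fold. Still, without WT replicate 1 Celf2 went from -0.88 to -0.38 and Igfbpl1 from -0.82 to -0.42. Without both replicate 1 libraries Celf2 stood at -0.30, Igfbpl1 at -0.52 and Myo18a at 1.03, while Fasn stood at 0.66. Fasn did depend on the scaling: with DESeq2's size factors it stood at 0.29 (unadjusted p = 0.496 by edgeR's quasi-likelihood test). With TMM its unadjusted p was under 0.05 in 2 of the fits that left out 1 library.

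**Figure D2:**
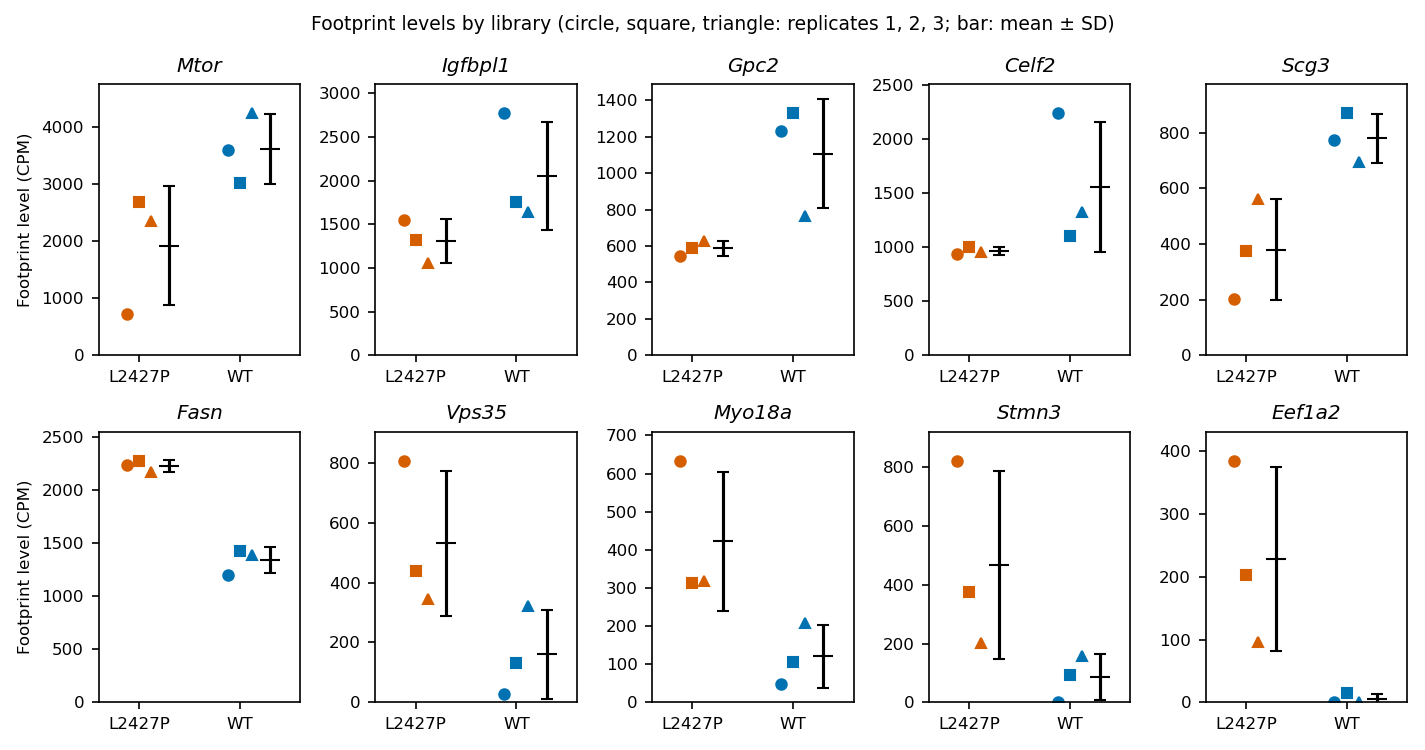
Footprint level in CPM (linear axis from 0) of 10 named genes in the L2427P libraries (orange) and the WT libraries (blue), with circles, squares and triangles for replicates 1, 2 and 3 and bars for the mean ± SD (n = 3). The groups do not overlap in any panel, Fasn and Gpc2 have narrow L2427P groups, and WT replicate 1 is the lowest library for Fasn, Vps35, Myo18a and Stmn3.

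**Figure D3:**
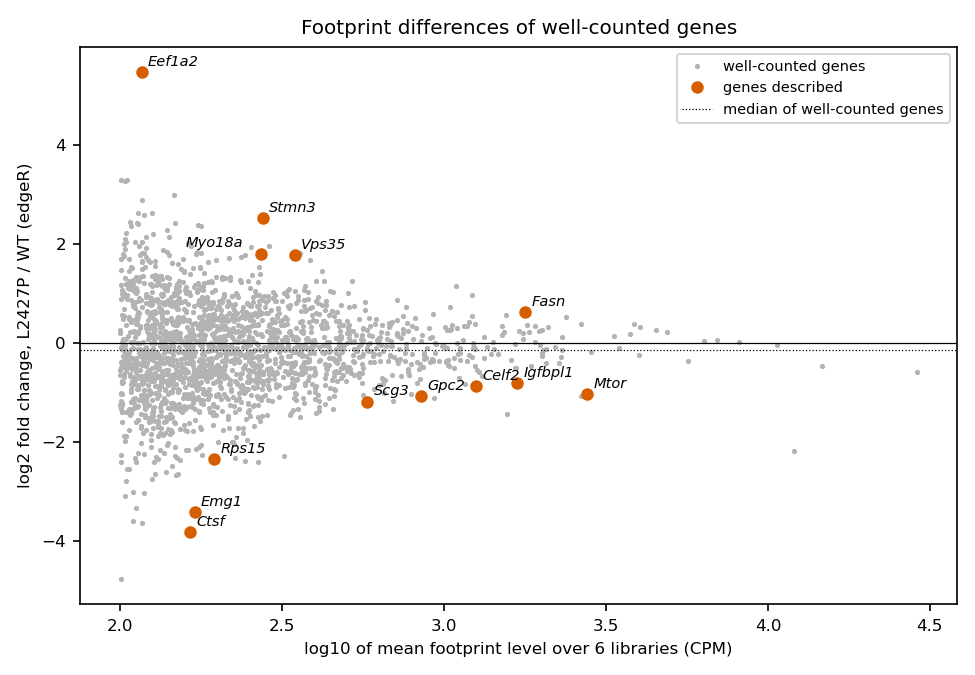
Log2 fold change, L2427P over WT (edgeR), against the log10 of the mean level in CPM over the 6 libraries for the 2035 well-counted genes (grey), with the 13 genes described in orange. The cloud narrows as the level rises, the dotted line marks the median of -0.16, and Mtor at -1.04 lies at the high-level edge of those genes.

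A further 11 well-counted genes had an unadjusted p under 0.05 with groups that overlapped. They include Marcks, an actin-linked substrate of protein kinase C, which stood at 762, 751 and 375 CPM in the L2427P libraries, against 1241, 2041 and 425 CPM in the WT libraries (log2 fold change -1.11, SE 0.45, unadjusted p = 0.0141). Eef2, Rps18 and the small nucleolar RNA Snord57 are also among them. Snord57 stood at 2943, 1524 and 1033 CPM in the L2427P libraries, against 4624, 2307 and 3496 CPM in the WT libraries (log2 fold change -1.07, SE 0.42). It is no mRNA, so its reads are no footprints of translation.

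Genes at 0 in every WT library and counted in every L2427P library numbered 141 (1.37% of those tested), and 0 genes (0%) showed the reverse. All were sparse: their mean L2427P level ran from 0.337 to 90.1 CPM with a median of 17.4 CPM, 0 of them were abundant, and 29 of the 141 reached 10 CPM in each L2427P library. The 5 with the highest lowest library were Strn3, Arl13b, Spryd7, Hmces and Inpp5b. Strn3, a striatin that scaffolds protein phosphatase 2A, stood at 64.5, 44.5 and 58.4 CPM in L2427P. Arl13b, a small GTPase of the primary cilium, stood at 39.7, 48.5 and 61.1 CPM in L2427P. Both were at 0 in all 3 WT libraries, where a count of 0 allows up to 3 counts, or 0.390, 0.245 and 0.0880 CPM in replicates 1, 2 and 3, for counting error alone. Set against the mean of these limits, the L2427P means were 232-fold higher for Strn3 and 206-fold higher for Arl13b. These folds cover counting error alone and are no lower bound. Every count of WT replicate 3 is a multiple of 3, so its limit may be too low and the folds too high. Mean mRNA levels in L2427P and WT were 54.6 and 153 CPM for Strn3 and 30.1 and 21.3 CPM for Arl13b.

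Spryd7 stood at 146, 27.4 and 27.2 CPM in L2427P, and Hmces, which shields abasic sites in single-stranded DNA, stood at 32.1, 43.4 and 24.5 CPM. Inpp5b, an inositol polyphosphate phosphatase, stood at 29.8, 24.4 and 61.4 CPM. L2427P replicates 2 and 3 counted 10941 and 10874 genes, more than any WT library, while L2427P replicate 1, with 6904, counted fewer than WT replicates 2 and 3. Without L2427P replicate 1 the count was 628 against 2 in the reverse direction, and fewer libraries make such separation easier. The part of gene detection in this imbalance was not tested.

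Of the 11 subunits of mTOR complexes 1 and 2, 8 were tested and 2 were abundant. Mtor made up most of their counts and was the only one with groups that did not overlap. It was thus 1 lower member of 8 tested, next to 1.65% of all genes tested. Rptor, the scaffold of complex 1 that recruits substrates, stood at 219, 131 and 101 CPM in the L2427P libraries, against 32.6, 223 and 102 CPM in the WT libraries (log2 fold change 0.31 (SE 1.98)). Mlst8, the subunit shared by both complexes, stood at 176, 52.9 and 30.9 CPM in the L2427P libraries, against 113, 0.163 and 65.8 CPM in the WT libraries. In both genes the libraries of the genotypes were interleaved. Among 44 genes of mTOR signalling, 41 were tested, 0 had an unadjusted p under 0.05 and the 11 abundant ones had a median log2 fold change of -0.27, where all 2161 abundant genes had -0.16. Ddit4, a stress-induced inhibitor of complex 1, stood at 612, 434 and 346 CPM in the L2427P libraries, against 14.8, 401 and 312 CPM in the WT libraries. Apart from WT replicate 1 the groups lay close. Igf1r, the receptor for insulin-like growth factors, stood at 113, 151 and 203 CPM in the L2427P libraries, against 423, 279 and 196 CPM in the WT libraries, and Slc3a2, the heavy chain of an amino acid transporter, had a log2 fold change of -0.63 (SE 1.43). Pdpk1, the kinase that activates AKT, was the only member without overlap, at 40.9, 116 and 48.9 CPM in the L2427P libraries, against 0.260, 26.8 and 3.61 CPM in the WT libraries. That is 1 higher member of 41 tested, next to 6.97% of all genes tested.

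Translation initiation factors gave no member at an unadjusted p under 0.05, 0 of 15 tested eIF4 factors and 4E-BPs and 0 of 26 others. Among the eIF4 factors and 4E-BPs, which act at the mRNA cap, the 12 abundant members had a median log2 fold change of 0.01. Eif4a1, the helicase of the cap complex, stood at 3387, 3104 and 2856 CPM in the L2427P libraries, against 2211, 2113 and 2251 CPM in the WT libraries (log2 fold change 0.38, SE 0.24, unadjusted p = 0.105). Its groups did not overlap in CPM and both were narrow. Eif4g1, the scaffold of the complex, stood at 721, 387 and 338 CPM in the L2427P libraries, against 603, 673 and 427 CPM in the WT libraries, and Eif4g2, a scaffold that does not bind the cap-binding protein, stood at 385, 632 and 521 CPM in the L2427P libraries, against 2.21, 723 and 830.2 CPM in the WT libraries. The list's summed level was 6539.9, 5978 and 5795 CPM in the L2427P libraries, against 4339, 4892 and 5499 CPM in the WT libraries, without overlap in CPM. After TMM scaling the sums did overlap, at 6487, 5819 and 5258 in L2427P and 5460.2, 4833 and 4921 in WT. The other initiation factors had a median of -0.12 over 16 abundant members, with Eif3a at 0.87 (SE 0.55), Eif3c at 0.11 (SE 0.73) and Eif3b at -0.60 (SE 0.80) on the log2 scale, and Eif3b was the one abundant member with groups that did not overlap. Without overlap, 1 of the 15 eIF4 factors and 4E-BPs was higher and 0 lower. Among the 26 others 1 was higher and 1 lower. Over all genes tested these shares were 6.97% and 1.65%.

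Elongation factors and other TOP mRNAs had the highest median of the translation lists, 0.52 over 13 abundant members, with 9 above 0 and 4 below. Of 17 tested, 2 were higher at an unadjusted p under 0.05, next to 3.29% of all genes tested, and 4 had higher groups that did not overlap, next to 6.97%. In the lower direction both counts were 0, next to 0.475% and 1.65%. Eef2, the GTPase of ribosomal translocation, stood at 4222, 2053 and 2330.2 CPM in the L2427P libraries, against 1333, 2451 and 1875 CPM in the WT libraries (log2 fold change 0.52, SE 0.26, unadjusted p = 0.0424). L2427P replicate 1 was highest and WT replicate 1 lowest, and the other 4 libraries were interleaved. Eef1a1, which delivers aminoacyl-tRNA, stood at 2752, 2127 and 2616 CPM in the L2427P libraries, against 1894, 2564 and 1919 CPM in the WT libraries (log2 fold change 0.11 (SE 0.24)), and Npm1, a nucleolar chaperone of ribosome assembly, had a log2 fold change of -0.34 (SE 0.45). Gnb2l1, the older symbol of the ribosome-bound scaffold Rack1, stood at 894, 638 and 345 CPM in the L2427P libraries, against 309.9, 219.5 and 323 CPM in the WT libraries. Eef1g, which anchors the exchange factor of elongation, stood at 373, 302 and 287 CPM in the L2427P libraries, against 213, 212 and 156 CPM in the WT libraries. Naca, which binds nascent chains, stood at 192, 183 and 231 CPM in the L2427P libraries, against 1.82, 162 and 178 CPM in the WT libraries. Together with Eef1a2 these make up the 4 without overlap, and for Naca and Eef1a2 WT replicate 1 was near 0. The list's summed level was 10996, 8253 and 9129 CPM in the L2427P libraries, against 6006, 8559.9 and 7339 CPM in the WT libraries, so WT replicate 2 lay within the L2427P range.

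Ribosomal proteins, the classical TOP mRNAs, lay near the bulk of the genes. The 25 abundant members of the small subunit had a median log2 fold change of -0.13 and the 33 of the large subunit -0.20, next to -0.16 over all abundant genes. Summed over the small subunit the level was 7531, 5689 and 5704 CPM in the L2427P libraries, against 7541, 6929.7 and 5485 CPM in the WT libraries, and over the large subunit it was 10116, 9439 and 9486 CPM in the L2427P libraries, against 8827, 11260.3 and 9756 CPM in the WT libraries. The groups overlapped in both sums. Rps10 stood at 688, 536 and 534 CPM in the L2427P libraries, against 733, 588 and 248 CPM in the WT libraries, and Rpsa, which doubles as a laminin receptor, had a log2 fold change of -0.21 (SE 0.71). Rps18 stood at 418, 203 and 209.7 CPM in the L2427P libraries, against 791, 681 and 410.2 CPM in the WT libraries (log2 fold change -1.34, SE 0.67, unadjusted p = 0.0452), where WT replicate 3 lay just below L2427P replicate 1. Of 32 tested members of the small subunit, Rps15 and Rps18 were the 2 with an unadjusted p under 0.05, both lower, while Rps24 and Rps19 had higher groups that did not overlap. At that p, 0.475% of all genes tested and 0.835% of the well-counted genes were lower. In the large subunit 0 of 46 had an unadjusted p under 0.05, with groups apart in 3 higher members (Rpl6, Rpl18 and Rpl19) and 4 lower ones (Rpl11, Rpl13, Rpl36al and Rpl37a), next to 6.97% and 1.65% of all genes tested. Over the well-counted genes the shares apart were 4.91% higher and 4.32% lower. Rpl4, Rpl3 and Rpl15, those with the most footprints, had log2 fold changes of 0.31 (SE 0.57), -0.81 (SE 0.56) and 0.15 (SE 0.59). Ribosomal protein genes have many near-identical pseudogenes, among which the authors' counting could split or drop reads.

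A pyrimidine motif resembling a TOP tract lies near the annotated starts of 4 of these genes, 2 elongation factors with higher L2427P means and 2 ribosomal proteins that lie on either side. Each stretch is the sense strand from RefSeq's GRCm38.p6 assembly, with the match to CTNTTNC in capitals.
Eef2: acgtcagcggtCTCTTCCgccgcagccgcc
Eef1a1: ctggctccgccCTCTTCCcgagggtggggg
Rpl4: acaagtctttcCTTTTCCtgtgggagcagc
Rps18: acttccgctctCTCTTCCacaggaggccta
The stretches lie at chr10:81176635-81176664 on the plus strand for Eef2, chr9:78481709-78481738 on the minus strand for Eef1a1, chr9:64173364-64173393 on the plus strand for Rpl4 and chr17:33955645-33955674 on the minus strand for Rps18. The match began at positions 15, -3, -12 and 2 relative to the annotated start for Eef2, Eef1a1, Rpl4 and Rps18, whereas a TOP tract begins at the first base of the mRNA. The mean L2427P and WT levels were 2868 and 1886 CPM for Eef2, 2498 and 2126 CPM for Eef1a1, 755 and 595 CPM for Rpl4, and 277 and 628 CPM for Rps18. The motif was searched within 50 bases either side of the annotated start, on both strands, and was chosen after the data were seen. It was found on the sense strand at 32 of 72 starts of ribosomal protein genes (44.4%) and on the other strand at 7 (9.72%), for 61 of 82 genes that matched an entry. Among all 32851 starts the shares were 11.8% and 11.9%. Ribosomal protein genes with the motif had a median log2 fold change of -0.14 over 27 tested members, and those without it -0.21 over 31. A match is a description of these letters near an annotated start and does not show that the mRNA begins with a TOP tract.

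Fasn was the one member of the sterol and fatty acid list, 30 tested, with an unadjusted p under 0.05. The 17 abundant members had a median log2 fold change of 0.07. Hmgcs1, an early enzyme of cholesterol synthesis, stood at 1072, 1299 and 1731 CPM in the L2427P libraries, against 1424, 496 and 895 CPM in the WT libraries, and Scd2, the stearoyl-CoA desaturase of the developing brain, had a log2 fold change of 0.07 (SE 0.50). Srebf1, whose product SREBP1 drives fatty acid genes downstream of mTOR complex 1, stood at 588, 71.1 and 95.6 CPM in the L2427P libraries, against 0, 40.4 and 64.7 CPM in the WT libraries, with higher groups that did not overlap. Elovl6 and Scd1 had lower groups that did not overlap. Of the 30 tested, 3 were higher and 2 lower without overlap, next to 6.97% and 1.65% of all genes tested and 4.91% and 4.32% of the well-counted genes. Summed over the list the level was 8541, 8471 and 9697 CPM in the L2427P libraries, against 6928, 6021 and 7674 CPM in the WT libraries, apart in CPM, but after TMM scaling the sums were 8472, 8245 and 8799 in L2427P and 8719, 5948 and 6867 in WT and overlapped.

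Lysosome and autophagy genes had 7 of 39 tested members with higher groups that did not overlap and 0 with lower ones, against 6.97% and 1.65% of all genes tested. These 7 were Atp6v0a1, Atp6v0b, Atp6v0d1, Atp6v1a and Atp6ap2 of the proton pump that acidifies lysosomes, the protease gene Ctsz and the autophagy gene Becn1. The list does not hold Ctsf, the lysosomal protease gene that was lower without overlap. Atp6v0d1 stood at 628, 218 and 275 CPM in the L2427P libraries, against 22.5, 97.6 and 215 CPM in the WT libraries (log2 fold change 1.77, SE 1.09, unadjusted p = 0.103). Atp6v1a stood at 430.5, 179.8 and 313 CPM in the L2427P libraries, against 0, 173 and 177 CPM in the WT libraries, and Atp6v0a1 at 484, 315 and 305 CPM in the L2427P libraries, against 252, 91.7 and 199 CPM in the WT libraries. WT replicate 1 was the lowest library, or level with the lowest, in 6 of the 7, and 4 of the 7 were not abundant. The members with the most footprints overlapped: Psap, the precursor of the saposins, had a log2 fold change of -0.37 (SE 0.37), Ctsb, cathepsin B, -0.58 (SE 0.62) and Atp6v1b2 -0.23 (SE 0.74). Over the 20 abundant members the median was 0.26, with 10 above 0 and 10 below, and 0 members of the list had an unadjusted p under 0.05. The summed level was 7067, 6052 and 7219 CPM in the L2427P libraries, against 5278, 5532 and 6030.0 CPM in the WT libraries. After TMM scaling the sums were 7009.9, 5891 and 6549.7 in L2427P and 6642, 5465 and 5396 in WT and overlapped.

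Genes of protein folding and turnover held 0 members at an unadjusted p under 0.05 among 29 chaperones, 8 CCT subunits and 41 proteasome genes tested. Hspa8, the constitutive Hsp70, stood at 4055, 3885 and 5762 CPM in the L2427P libraries, against 2113, 2916 and 5498 CPM in the WT libraries (log2 fold change 0.32 (SE 0.19)), and Hsp90ab1 and Hsp90aa1 had log2 fold changes of 0.17 (SE 0.20) and -0.11 (SE 0.22). The 8 subunits of the CCT chaperonin, which folds actin and tubulin, had a median of -0.51, with 2 above 0 and 6 below, and 0 had groups that did not overlap. Cct8 stood at 316, 594 and 480.1 CPM in the L2427P libraries, against 1311, 516 and 425 CPM in the WT libraries, where WT replicate 1 alone was high, while Cct7 had a log2 fold change of 0.35 (SE 0.55) and Cct3 of -0.43 (SE 0.59). Proteasome genes had a median of 0.21 over 31 abundant members, with 20 above 0 and 11 below. Psmd2, a subunit of the regulatory particle, stood at 839, 652 and 825 CPM in the L2427P libraries, against 307, 1139.9 and 559.8 CPM in the WT libraries, Psmb6 had a log2 fold change of -0.06 (SE 0.73) and Psmc1 of 0.21 (SE 0.99). Groups did not overlap in 5 higher members (Psmd6, Psma6, Psma3, Psmg1 and Psmg2) and in 1 lower member, Psmb3, of 41 tested, next to 6.97% and 1.65% of all genes tested. Among the 29 chaperones 1 was higher and 2 were lower without overlap. Over the well-counted genes the shares were 4.91% and 4.32%.

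Genes of energy metabolism lay near the bulk of the genes. Over 13 abundant glycolysis genes the median log2 fold change was 0.21, and over 30 abundant genes of the respiratory chain 0.06, with 0 members of either at an unadjusted p under 0.05. Pkm, the last enzyme of glycolysis, stood at 2610.2, 1336 and 1978 CPM in the L2427P libraries, against 1102, 2682 and 1762 CPM in the WT libraries. Pgam1 and Ldhb had log2 fold changes of 0.76 (SE 0.65) and 0.56 (SE 0.77). Hk1, the first enzyme, stood at 611, 373 and 414 CPM in the L2427P libraries, against 17.4, 361 and 304 CPM in the WT libraries, without overlap but with WT replicate 1 near 0. Atp5b, a catalytic subunit of ATP synthase, stood at 1244, 1336 and 1236 CPM in the L2427P libraries, against 1077, 1019 and 1475 CPM in the WT libraries, and Atp5a1 and Atp5o had log2 fold changes of 0.30 (SE 0.44) and -0.82 (SE 0.86). Among tRNA synthetases and targets of the stress factor ATF4 the 19 abundant members had a median of -0.17. Slc38a2, an amino acid transporter, had a log2 fold change of -0.59 (SE 0.64), Aldh18a1, of proline synthesis, -0.52 (SE 0.65) and Gars, the glycyl-tRNA synthetase, 0.67 (SE 0.82). Without overlap, glycolysis held 2 higher and 1 lower of 18 tested, and the respiratory chain 4 higher and 0 lower of 59. The list of synthetases and ATF4 targets held 3 higher and 0 lower of 35. Over all genes tested these shares were 6.97% and 1.65%. Of the adenosine list, 18 genes were tested and 3 were abundant. Adk and Nt5c2 had higher groups that did not overlap, Ampd3 lower ones, and Ada, adenosine deaminase, stood at 127, 18 and 8.89 CPM in L2427P and at 0 in all 3 WT libraries. With Ada, 3 of the 18 were higher and 1 lower without overlap, next to 6.97% and 1.65% of all genes tested. Ahcyl1, Mat2a and Ahcy, those with the most footprints, had log2 fold changes of 0.63 (SE 1.03), 0.37 (SE 1.65) and 0.02 (SE 2.33).

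Tubulins had small standard errors, with a median of 0.31 over 7 abundant members. The medians were 0.98 for the abundant microtubule regulators, 0.904 for actin and growth cone genes and 0.775 for motors. Tubb5, a beta-tubulin, stood at 8442, 6571 and 6898 CPM in the L2427P libraries, against 5747, 6511 and 7469.5 CPM in the WT libraries, a log2 fold change of 0.05 (SE 0.14). Tubb3, the neuronal beta-tubulin, stood at 5349, 5621 and 5211 CPM in the L2427P libraries, against 3299, 5049 and 4817 CPM in the WT libraries. Its groups did not overlap in CPM, and 2 of the WT libraries lay close below. It was the 1 such member of 12 tested, next to 6.97% of all genes tested. Tubb2b, another neuronal beta-tubulin, had a log2 fold change of -0.18 (SE 0.22), and Tube1 was sparse, at 0, 29.3 and 3.35 CPM in L2427P and 0 in all WT libraries. Tubulin and actin genes have close paralogs among which reads can be split. Over 30 abundant microtubule regulators the median was 0.02, with Map1b at 0.02 (SE 0.15), Dpysl2 at 0.26 (SE 0.18) and Dpysl3 at 0.13 (SE 0.21). Dcx, the microtubule-binding doublecortin of migrating neurons, stood at 1503, 1503 and 1782 CPM in the L2427P libraries, against 14.7, 1092 and 1395 CPM in the WT libraries, and Mapt, tau, at 759, 963 and 704 CPM in the L2427P libraries, against 478, 560.1 and 670.5 CPM in the WT libraries. Both were without overlap, Dcx with WT replicate 1 near 0. Of the 35 tested, Stmn3 was the one with an unadjusted p under 0.05, next to 3.29% higher of all genes tested. Without overlap, 3 were higher and 0 lower, next to 6.97% and 1.65%.

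Actin and growth cone genes had a median log2 fold change of -0.03 over 34 abundant members, with 17 above 0 and 17 below. Actb stood at 6810.5, 10615 and 8231 CPM in the L2427P libraries, against 7649, 7923 and 7686 CPM in the WT libraries, a log2 fold change of 0.01 (SE 0.13), and Actg1 at 4238, 5064 and 4078 CPM in the L2427P libraries, against 1985, 4551 and 3227 CPM in the WT libraries, a log2 fold change of 0.38 (SE 0.19). Ywhaz, a 14-3-3 adaptor protein, had a log2 fold change of -0.08 (SE 0.26). Marcks was the one member with an unadjusted p under 0.05, while Capzb and Cyfip1 had higher groups that did not overlap. These were 2 of 41 tested, with 0 lower, next to 6.97% and 1.65% of all genes tested. For the motors the median over 19 abundant members was 0.21. Dync1h1, the heavy chain of cytoplasmic dynein, stood at 2065, 2130.2 and 2087 CPM in the L2427P libraries, against 1471, 1371 and 1666 CPM in the WT libraries (log2 fold change 0.36, SE 0.30, unadjusted p = 0.24). Its groups were narrow and did not overlap, the 1 such motor of 32 tested, next to 6.97% of all genes tested. Kif1a and Kif1b, kinesins of vesicle transport, had log2 fold changes of 0.28 (SE 0.41) and -0.20 (SE 0.45).

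Adhesion and guidance genes had a median of -0.11 over 29 abundant members and 0 of 48 tested at an unadjusted p under 0.05. Cntn2, a contactin of axons, stood at 4039, 3901 and 3520.3 CPM in the L2427P libraries, against 3616, 5189 and 3733 CPM in the WT libraries, and Ncam1 and Ctnnb1 had log2 fold changes of 0.23 (SE 0.28) and -0.46 (SE 0.28). Synaptic vesicle genes had a median of -0.01 over 16 abundant members, with Syt11 at 0.10 (SE 0.65), Syp at 0.12 (SE 0.82) and Syt4 at 0.57 (SE 0.86). Syn1, Syn3, Chgb and Napa had higher groups that did not overlap and 0 members had lower ones, of 34 tested, next to 6.97% and 1.65% of all genes tested. Sncb, of the synuclein family, was sparse at 0, 19.5 and 12.5 CPM in L2427P and 0 in all WT libraries. Channels and transmitter receptors had 6 abundant members of 42, with a median of -0.71. Cacna2d1, a calcium channel subunit, had a log2 fold change of -0.87 (SE 1.03). Gria2, an AMPA receptor subunit, stood at 91.3, 367 and 422 CPM in the L2427P libraries, against 838, 317 and 410.2 CPM in the WT libraries, where WT replicate 1 was high and L2427P replicate 1 low.

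RNA-binding regulators of neuronal mRNAs had a lower sum in all 3 L2427P libraries than in any WT library, while their median lay close to that of all abundant genes. The list's summed level was 8324, 8769 and 9015 CPM in the L2427P libraries, against 9379, 10838 and 10421 CPM in the WT libraries. After TMM scaling the sums were 8257, 8536 and 8179.6 in L2427P and 11803, 10707 and 9325 in WT, again without overlap. Of the 39 lists 2 had lower sums without overlap, about as many as a random order of the libraries would give. Of 36 tested members Celf2 was the one with an unadjusted p under 0.05. Tardbp, the splicing regulator TDP-43, stood at 272, 278 and 330.5 CPM in the L2427P libraries, against 818, 343 and 357 CPM in the WT libraries (log2 fold change -1.01, SE 0.81, unadjusted p = 0.212). Stau2, which carries mRNAs into dendrites, stood at 29, 43.6 and 39.9 CPM in the L2427P libraries, against 198, 123 and 64.8 CPM in the WT libraries. Both had lower groups that did not overlap, and in both WT replicate 1 was the highest library. With Celf2 they were the 3 lower members without overlap, and Purb was the 1 higher member, next to 1.65% lower and 6.97% higher of all genes tested. Over the well-counted genes these shares were 4.32% and 4.91%. Khdrbs1 and Caprin1 overlapped, with log2 fold changes of 0 (SE 0.42) and -0.24 (SE 0.47), and over the 23 abundant members the median was -0.11, next to -0.16 over all abundant genes, with 7 above 0 and 16 below.

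Spliceosome, hnRNP and SR protein genes had a median of -0.17 over 45 abundant members, close to that of all abundant genes, and 0 of 53 tested had an unadjusted p under 0.05. Hnrnpk, Ddx5 and Hnrnpu had log2 fold changes of -0.12 (SE 0.26), 0.33 (SE 0.29) and -0.22 (SE 0.34). Hnrnpl, a splicing regulator, stood at 969, 1119 and 1137 CPM in the L2427P libraries, against 1365, 1681 and 1312 CPM in the WT libraries, lower and without overlap, while Srsf3, Srsf4, Srsf5 and Hnrnpdl were higher and without overlap. Chromatin regulators had a median of -0.15 over 41 abundant members, with Tcf4 at 0.21 (SE 0.31), H3f3b at -0.21 (SE 0.38) and Smarca4 at 0.25 (SE 0.39). Groups were apart and lower for Hmgn2, Kmt2a and Smc3 and apart and higher for Ehmt1, of 53 tested. Both these lists compare with shares of 6.97% higher and 1.65% lower over all genes tested. Over the well-counted genes the shares were 4.91% and 4.32%. Hmgn2, a nucleosome-binding protein, stood at 22.5, 112 and 55.9 CPM in the L2427P libraries, against 296, 241 and 232 CPM in the WT libraries (log2 fold change -2.17, SE 1.6, unadjusted p = 0.177).

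**Figure D4:**
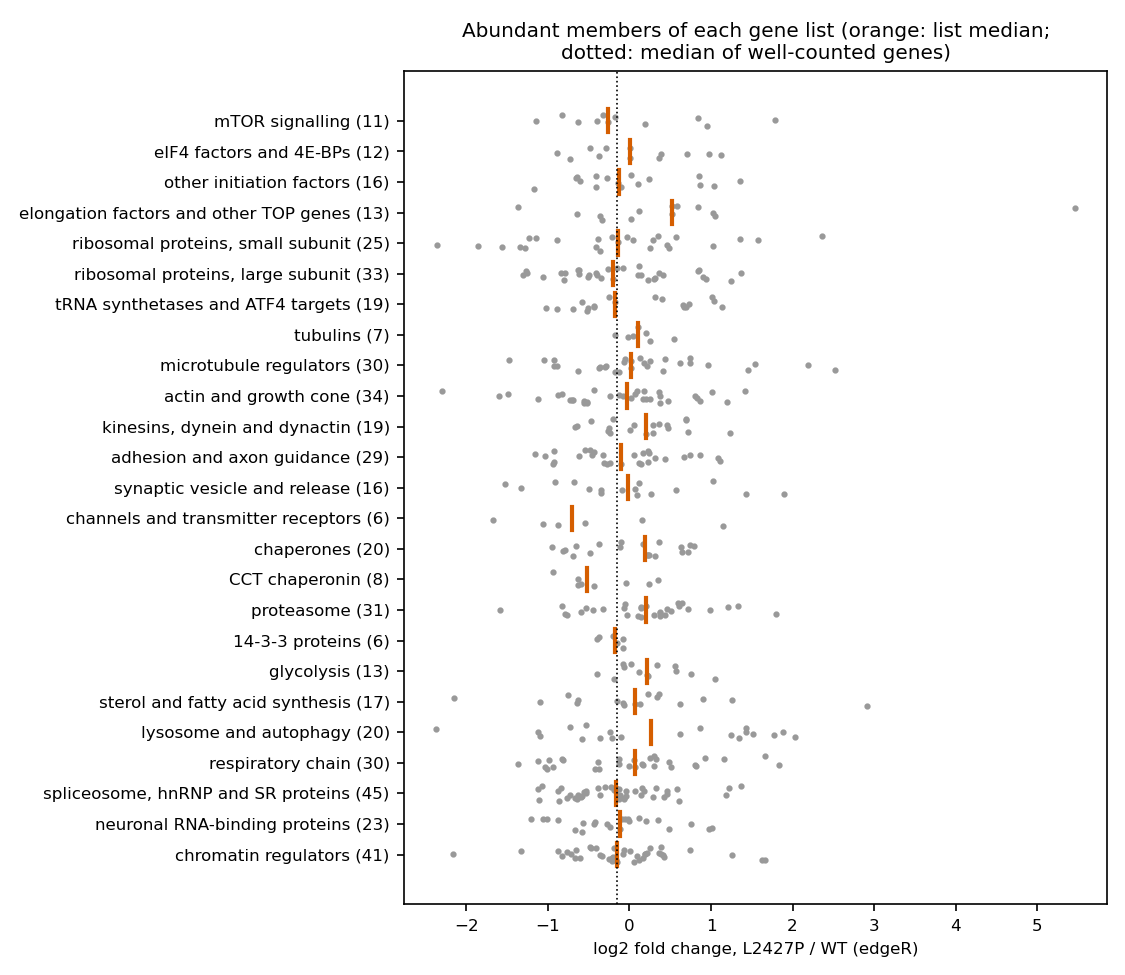
Log2 fold changes, L2427P over WT (edgeR), of the abundant members (grey points, number in brackets) of 25 gene lists, with each list's median in orange and the median of the well-counted genes, -0.16, dotted. Most medians lie close to the dotted line, and the elongation factors and other TOP genes stand highest at 0.52.

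**Figure D5:**
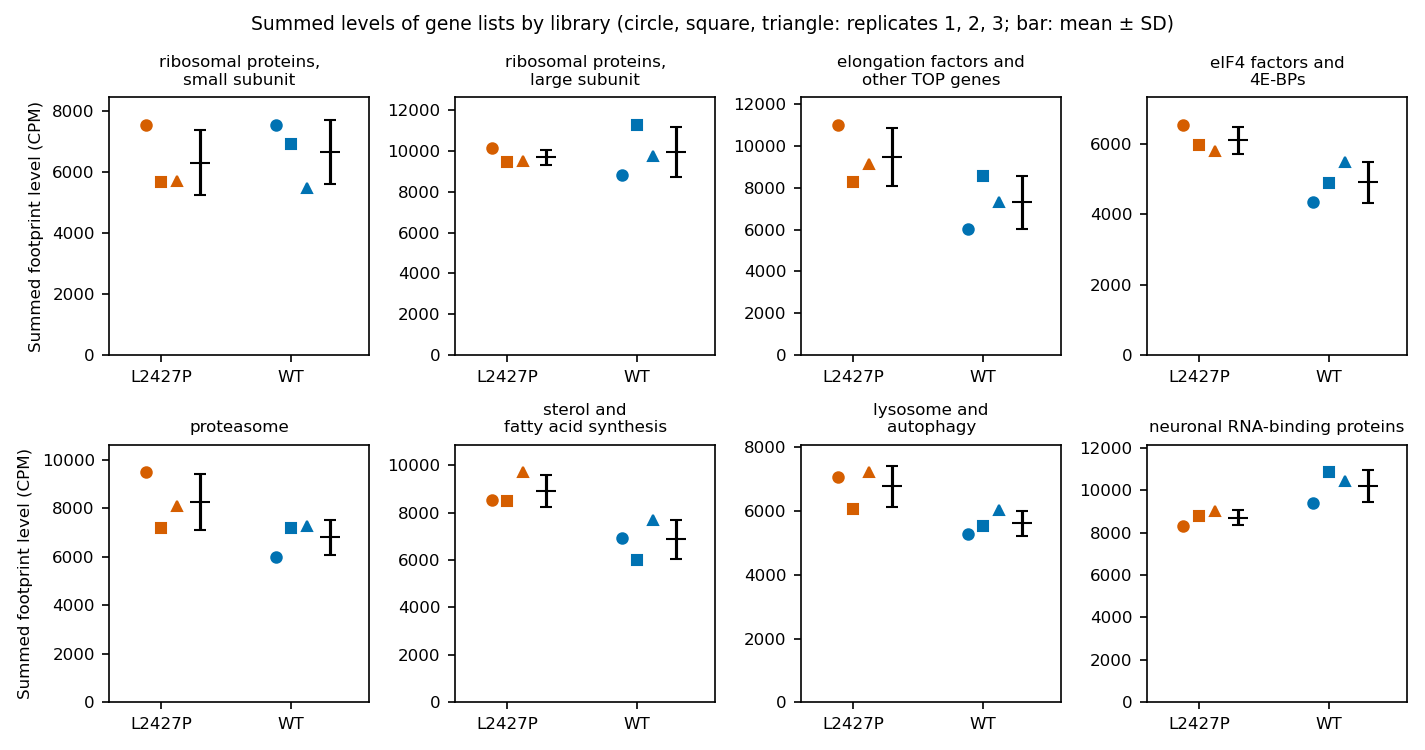
Summed footprint level in CPM (linear axis from 0) of 8 gene lists in the L2427P libraries (orange) and the WT libraries (blue), with circles, squares and triangles for replicates 1, 2 and 3 and bars for the mean ± SD (n = 3). Sums are apart in CPM for the eIF4, sterol, lysosome and neuronal RNA-binding lists, and after TMM scaling they stay apart for the last of these 4 alone.

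In all, the summed CPM of 4 of the 39 lists was higher without overlap in L2427P and that of 2 was lower. Those lower were the mTOR complex subunits, where Mtor dominates, and the neuronal RNA-binding proteins. After TMM scaling both kept their place, the 4 higher lists overlapped, and the pan-neuronal and cycling markers were higher without overlap instead. That left 2 lists apart in each direction, about as many as a random order of the libraries would give.

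Of the markers of cortical neurons, 9 of 10 pan-neuronal, 9 of 10 upper-layer and 3 of 10 deep-layer ones were abundant. Dcx and Tbr1 were low in WT replicate 1. Pan-neuronal markers summed to 15633, 16031 and 16813 CPM in the L2427P libraries, against 11275, 14670.5 and 16146 CPM in the WT libraries. Tbr1, a factor of deep layers, stood at 543, 519 and 435 CPM in the L2427P libraries, against 20.4, 919 and 566 CPM in the WT libraries. Upper-layer markers summed to 5384, 5459 and 4269.7 CPM in the L2427P libraries, against 6156, 5338 and 5121 CPM in the WT libraries, and deep-layer markers to 2115, 1879.6 and 2197 CPM in the L2427P libraries, against 1346, 2946 and 2435 CPM in the WT libraries. Progenitor markers summed to 1046, 1543 and 2806 CPM in the L2427P libraries, against 1233, 1358 and 1900.1 CPM in the WT libraries, with Fabp7 and Vim highest in L2427P replicate 3. In CPM the sums of all these lists overlapped between the genotypes.

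Markers of other cell types were low. Microglial markers summed to 175, 105 and 309.7 CPM in the L2427P libraries, against 207, 109.8 and 197 CPM in the WT libraries, astrocyte markers to 226, 282 and 412 CPM in the L2427P libraries, against 242, 439 and 294 CPM in the WT libraries, and oligodendrocyte markers to 160.3, 37.1 and 117 CPM in the L2427P libraries, against 166, 218 and 102 CPM in the WT libraries. Interneuron markers summed to 153, 244 and 68.8 CPM in the L2427P libraries, against 0, 81.4 and 83.8 CPM in the WT libraries. All 7 were at 0 in WT replicate 1, and the sum of L2427P replicate 1 was Slc32a1 alone, with Gad1, Gad2 and the Dlx genes at 0. Slc32a1, the vesicular GABA transporter, Olig1 of the oligodendrocyte lineage and the microglial receptor Cx3cr1 were counted in every L2427P library and stood at 0 in every WT library, and were picked here for that pattern. Their levels in L2427P were 153, 19.9 and 10.8 CPM for Slc32a1, 31.2, 0.948 and 23.8 CPM for Olig1 and 46.4, 0.948 and 72.6 CPM for Cx3cr1. The same pattern held for 1.37% of all genes tested. Each of their lists had 6 members tested and 1 higher without overlap. The oligodendrocyte list also had 1 lower without overlap. Over all genes tested these shares were 6.97% higher and 1.65% lower. Of the 5 endothelial, 6 pericyte and meningeal and 7 erythroid markers, 2, 1 and 5 were at 0 in all 6 libraries. Endothelial markers summed to at most 12.5 CPM in L2427P and 58.5 CPM in WT. Pericyte and erythroid markers reached 26.6 and 51.7 CPM in L2427P and 0.352 and 0.390 CPM in WT. The part of such cells in the results was not tested.

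The mRNA libraries of the same genotypes give a readout that the choice of the named genes did not use. Of the 14 well-counted genes chosen this way, Mtor included, 7 (50%) had an mRNA log2 fold change in the direction of the footprint one, and of all 2024 well-counted genes tested in both assays 1074 did (53.1%). Of these 14 genes, 0 passed an adjusted p of 0.05 in mRNA by edgeR's quasi-likelihood test. Mtor mRNA stood at 587, 388 and 297 CPM in L2427P, against 455, 599.5 and 655 CPM in WT (log2 fold change -0.56, SE 0.58). Vps35 mRNA stood at 245, 394 and 624 CPM in L2427P, against 81.3, 236 and 212 CPM in WT (log2 fold change 0.88, SE 0.88) and Stmn3 mRNA at 1351, 1073 and 1076 CPM in L2427P, against 821, 986 and 817 CPM in WT (log2 fold change 0.22, SE 0.39). Igfbpl1 mRNA stood at 1257, 768 and 1418 CPM in L2427P, against 568, 1217 and 759 CPM in WT (log2 fold change 0.16, SE 0.40), and Gpc2 mRNA at 272, 323 and 548 CPM in L2427P, against 304, 320.3 and 451 CPM in WT (log2 fold change -0.24, SE 0.69). For Fasn, Myo18a and Ctsf mRNA replicate 3 of L2427P was at 0, so their L2427P mRNA values rest on the other 2 libraries.

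Footprint libraries of a second MTOR variant, C1483Y, are compared with the same WT libraries, so the 2 comparisons share their controls. Its replicate 3 was not used, since its deposited values are displaced against the gene names. Replicates 1 and 2 of C1483Y had Mtor at 2881 and 2147 CPM, Adk at 63.4 and 92.8 CPM and Igfbpl1 at 1324 and 1766 CPM. They had Fasn at 1354 and 2859.6 CPM and Vps35 at 818 and 289 CPM. Gpc2 stood at 321 and 573 CPM, Celf2 at 900.2 and 644 CPM, Scg3 at 658 and 534 CPM and Rps15 at 287 and 220.2 CPM. Of the genes at 0 in WT, Arl13b, Spryd7 and Inpp5b were at 0 in both of these libraries too, while Hmces stood at 171 and 80.2 CPM. A test of L2427P against C1483Y was not made here.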

How the data were processed

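Footprints and mRNA were sequenced from small RNA libraries on an Illumina HiSeq, per the labels' protocols. The submitters' processing notes list mm10, TopHat2 2.1.1, Bowtie 1.1.2 and HTSeq, and neither annotation nor strand setting is stated. For 17 libraries the authors' files hold whole-number counts by gene symbol. Footprint library C1483Y replicate 3 was deposited with values that are not all whole, taken here as estimated counts and rounded, and it entered only an alternative fit with all 9 footprint libraries. Summary rows and 27 names turned into dates were left out.

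Counts of the 8 other footprint libraries were kept by filterByExpr at a minimum count of 10, scaled by TMM and tested with edgeR 4.0.16 (R 4.3.3) by the quasi-likelihood test with Benjamini-Hochberg adjustment at 0.05, L2427P over WT. Standard errors are the fold change over the square root of its F statistic. The mRNA fit had 9 libraries. DESeq2 1.42.0 was an alternative. The test was also run on simulated counts with the same spread in every gene, which do not show how it performs on these libraries. CPM scales each count to the library's sum over named genes. Whether the groups of a single gene overlap was judged in CPM, without TMM factors. Exact permutation tests used log2(CPM + 1).

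Named genes were Mtor, Adk, all well-counted genes with unadjusted p under 0.05 and groups that do not overlap (at most 10 in each direction), the 5 genes at 0 in WT with the highest lowest library, and per list the 3 members with the most CPM and any with unadjusted p under 0.05. The 39 lists, the members and this rule were chosen with earlier results of these data known. Genes named for not overlapping were chosen after their values were seen. Levels in CPM are not per length and are compared within a gene only. A few genes that the rule names are not reported here.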

Additional observations from a re-analysis of the deposited data

How the results depend on the processing

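The count of genes called at an adjusted p of 0.05 stayed at 0 in each direction with the 6 L2427P and WT libraries alone, all 9 footprint libraries, DESeq2's size factors, no filter, the abundant genes alone and WT replicate 3 divided by 3. DESeq2's Wald test called 279 higher and 19 lower. Replicate numbers were examined as a pairing, and deviations of same-numbered libraries from their group means correlated at -0.0151, 0.0065 and 0.0319. Pairs with different numbers ran from -0.0791 to 0.0411. Rn45s, the precursor of ribosomal RNAs, was highest in replicate 1 and lowest in replicate 3 of both genotypes. Whether same-numbered libraries shared a preparation was not tested. With the replicate block 1 gene, Snord57, was called lower and 150 had an unadjusted p under 0.05. The unadjusted count was 388, and it was 213 with the 6 libraries alone, 1047 by DESeq2's Wald test and 11 among the abundant genes alone.

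Leaving out 1 library at a time gave 0 to 0 higher calls, 0 to 1 lower calls, 95 to 775 genes at an unadjusted p under 0.05, log2 fold changes of -1.39 to -0.75 for Mtor and 2.19 to 4.13 for Adk. The lower call was Mtor without WT replicate 2 (-1.31) or L2427P replicate 2 (-1.39), Mir6236 without WT replicate 3 and Snord57 without L2427P replicate 1. Well-counted genes without overlap then numbered 162 to 315 higher and 140 to 255 lower, genes at 0 in WT alone 167 to 628 and in L2427P alone 1 to 6. Fewer libraries make such separation easier. With both replicate 1 libraries left out, chosen after seeing the data, Snord57 was the 1 lower call, 294 and 348 genes did not overlap, and 866 and 11 stood at 0 in one group. With fewer libraries a random order sets the groups apart in more genes. These counts therefore cannot be set beside those over all 6 libraries. Of the 13 other named well-counted genes, 221 of 221 values kept direction and side. Those genes were chosen for groups that do not overlap, so their direction was all but fixed in advance. Of the list medians, 573 of 654 stayed within the main spread. The mRNA agreement was 7 to 9 of 14. The causes were not tested.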

Other observations

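Some well-counted genes had wide gaps between the genotypes without an unadjusted p under 0.05, and they were singled out after their values were seen. Mmp15, a membrane-bound matrix metalloproteinase, had footprints at 0.149, 36.2 and 37.7 CPM in the L2427P libraries, against 255, 132 and 161 CPM in the WT libraries (edgeR log2 fold change -3.09, SE 2.61, unadjusted p = 0.235). Its mRNA was at 0.206, 0 and 0 CPM in L2427P, against 95.2, 105 and 47.6 CPM in WT (unadjusted p = 0.0244, adjusted p = 1 by edgeR's quasi-likelihood test). The 2 assays thus pointed the same way for this gene, though neither test passed its threshold after adjustment. Over all well-counted genes tested in both assays, 53.1% had the same direction, and Mmp15 was picked with its values seen. The mRNA library of L2427P replicate 3 counted 3173 genes, against 10239 and 8016 in replicates 1 and 2, so a 0 there says little. Maea, a subunit of the GID/CTLH ubiquitin ligase, had footprints at 57.8, 136 and 156 CPM in L2427P, against 445, 327 and 319 CPM in WT, with mRNA at 134, 145 and 0 CPM in L2427P and 313, 123 and 308 CPM in WT. Paf1, which names a complex that assists transcription elongation, had footprints at 321, 87.6 and 144 CPM in L2427P, against 31.8, 0.245 and 15.8 CPM in WT.

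Structural RNAs took many reads of the footprint libraries. Rn45s, the precursor of the large ribosomal RNAs, stood at 38155, 27479 and 9884 CPM in L2427P, against 55594, 33281 and 8955 CPM in WT, so it was lowest in replicate 3 of both genotypes. Snord57 was lower than WT replicates 1 and 3 in all 3 L2427P libraries, while WT replicate 2, at 2307 CPM, lay below L2427P replicate 1, at 2943 CPM.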
